A study of Mus musculus with 12 samples.

Results

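Interferon-stimulated genes were followed in mouse embryonic fibroblasts whose RNA-binding protein IMP2 (gene Igf2bp2) had been targeted with an siRNA. The members are 39 genes named in a fixed list, and each was found as 1 row of the deposited count matrix, which holds 48709 genes. Of the 39 members, 34 had enough reads to be tested and 5 were too low to measure. The cells were wild-type C57BL/6 fibroblasts from E12.5 to 13.5 embryos. The cells of all 12 libraries were transfected with an siRNA, so the comparison cells were not untreated. There were 4 groups of 3 libraries: siIMP2 with IL-17, siIMP2 without stimulus, siControl with IL-17, and siControl without stimulus. IL-17 was given at 200 ng/mL for 8 h, starting 24 h after transfection. The design asks how IMP2 siRNA and the inflammatory cytokine IL-17 each change the transcripts, and whether the IL-17 response depends on IMP2. Whether the 3 libraries of a group stem from separate cultures or embryos is not stated in the labels, and the p-values then measure only their spread, which may be technical.

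Type I interferons signal through the receptor subunits IFNAR1 and IFNAR2 and the kinases JAK1 and TYK2 to the complex ISGF3, of which STAT2 and IRF9 are subunits. ISGF3 and IRF family members bind the interferon-stimulated response element (ISRE) in target promoters, and the gamma-activated site (GAS) is another element of interferon-responsive promoters. The induced genes encode sensors of viral RNA, antiviral effectors, proteasome subunits and peptide transporters for antigen presentation, and feedback regulators, and many keep a low basal level in fibroblasts without added interferon. IL-17 acts through a different receptor and is best known for inducing chemokines, cytokines and feedback genes of the NF-kB and C/EBP pathways.

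The titles of the libraries carry the prefix NA or RB160, whose meaning the labels do not give. In every group replicates 1 and 2 were NA libraries and replicate 3 was the RB160 library, and values for a group are listed in that order below. Libraries held 33841054 to 44433699 reads in genes, and 1 CPM (a read count scaled to library size by TMM) stood for 31.89 to 50.86 reads. Igf2bp2 averaged 23.6 ± 4.9 CPM (SD, n = 3) in siIMP2 cells with IL-17 and 154 ± 13.5 CPM in siControl cells with IL-17, and 21.9 ± 3.01 CPM in siIMP2 cells without stimulus and 149 ± 17.1 CPM in siControl cells without stimulus. The target was therefore lower in every siIMP2 library than in every siControl library. Fibroblast markers summed to 30000 to 37900 CPM in siIMP2 libraries and 27500 to 33600 CPM in siControl libraries. The macrophage markers Adgre1, Fcgr1 and C1qb were at 0 in all 12 libraries, and the 10 macrophage markers summed to 3.89 to 5.74 CPM in siIMP2 libraries and 4.64 to 6.39 CPM in siControl libraries. In bulk RNA, fewer cells of one kind and less RNA per cell cannot be told apart.

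Promoter windows were available from RefSeq (GRCm38.p6, the assembly that mm10 names) for 31 of the 39 members. An ISRE-like match, GAAANNGAAA on either strand, lay within 250 bases before to 50 bases after the start in 14 of these 31 members (45.2%) and in 1079 of all 27025 genes in the table (3.99%). A GAS-like match, TTCNNNGAA, which reads the same on both strands, lay in 9 of 31 members (29.0%) and in 2582 of all 27025 genes (9.55%). Both motifs were present in Eif2ak2, Ifitm3, Bst2 and Gbp7, and the 2 kinds overlapped by position in the Bst2 and Ifitm3 windows. Examples are the nearby guanylate-binding protein genes Gbp2, Gbp3 and Gbp7 and the tetherin gene Bst2. Others are the transcription factor gene Irf1 and the ubiquitin-like modifier gene Isg15, which was not called for the siRNA. The windows of these 6 genes are printed. Each is given 5′ to 3′ on the strand of the gene, from 150 bases before to 50 bases after the start, with ISRE-like and GAS-like matches in capitals. The windows are chr3:142620513-142620712, plus strand (Gbp2), chr3:142559894-142560093, plus strand (Gbp3), chr3:142530186-142530385, plus strand (Gbp7), chr8:71537423-71537622, minus strand (Bst2), chr11:53769864-53770063, plus strand (Irf1) and chr4:156200769-156200968, minus strand (Isg15).
Gbp2: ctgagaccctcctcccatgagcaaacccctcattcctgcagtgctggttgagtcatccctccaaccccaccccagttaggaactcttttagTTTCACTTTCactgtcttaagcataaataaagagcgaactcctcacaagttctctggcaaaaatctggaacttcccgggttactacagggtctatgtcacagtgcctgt
Gbp3: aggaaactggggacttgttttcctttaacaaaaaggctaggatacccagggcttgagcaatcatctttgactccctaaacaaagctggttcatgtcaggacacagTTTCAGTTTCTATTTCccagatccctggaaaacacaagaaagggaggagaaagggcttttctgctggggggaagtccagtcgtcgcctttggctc
Gbp7: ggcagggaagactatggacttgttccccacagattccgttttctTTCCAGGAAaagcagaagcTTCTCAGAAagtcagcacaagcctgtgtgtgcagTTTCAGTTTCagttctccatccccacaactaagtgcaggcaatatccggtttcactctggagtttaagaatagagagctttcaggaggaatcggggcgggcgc
Bst2: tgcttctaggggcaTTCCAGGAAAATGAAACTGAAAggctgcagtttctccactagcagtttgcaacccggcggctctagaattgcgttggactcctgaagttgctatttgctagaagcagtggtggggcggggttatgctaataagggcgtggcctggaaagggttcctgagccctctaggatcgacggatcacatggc
Irf1: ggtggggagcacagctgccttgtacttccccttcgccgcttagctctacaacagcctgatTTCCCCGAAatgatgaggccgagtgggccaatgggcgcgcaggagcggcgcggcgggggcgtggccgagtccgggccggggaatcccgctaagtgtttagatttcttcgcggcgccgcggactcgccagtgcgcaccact
Isg15: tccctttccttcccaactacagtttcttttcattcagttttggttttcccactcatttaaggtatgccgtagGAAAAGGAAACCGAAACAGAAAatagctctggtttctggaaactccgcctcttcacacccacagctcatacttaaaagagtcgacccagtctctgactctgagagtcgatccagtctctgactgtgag
The capitals in Gbp2 are 1 ISRE-like match that begins 59 bases before the start, read on the opposite strand. Gbp3 has 2 ISRE-like matches that share bases, and Isg15 has 3 that share bases in turn. In Gbp7 the first 2 capital stretches are GAS-like and the third is ISRE-like. The Bst2 stretch holds 1 GAS-like and 2 ISRE-like matches, and the Irf1 stretch is a single GAS-like match 90 bases before the start. A match describes these letters and shows neither binding nor a cause.

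Per unit of transcript length the members spanned a wide range of levels. Ifitm2 had the highest median over the 12 libraries, 460 TPM (the authors' value, scaled for transcript length and depth, range 394 to 614), followed by Ifitm3 at 399 TPM (range 276 to 670). The ranges of these 2 genes overlap widely, and 55% of the reads assigned to Ifitm2 were unique to 1 position, so the Ifitm2 level is uncertain. Ifi27 had a median of 30.5 TPM, Samhd1 22.1 TPM and Bst2 18.4 TPM, and from Ifi27 down each gene's range overlaps that of the next. The classical reporters of an interferon response were low: the median was 1.11 TPM for Isg15, 0.812 TPM for Ifit3 and 0.207 TPM for Ifit1.

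The remaining 5 members were too low to test. Mx1 and Mx2, dynamin-like antiviral GTPases, had 8 and 26 reads in all 12 libraries together. Oasl1, an OAS-like regulator, had 15 reads, the viperin gene Rsad2 had 22 and the mitochondrial nucleotide kinase gene Cmpk2 had 49. Most of these reads came from the 4 RB160 libraries, which held 7 of 8 for Mx1, 24 of 26 for Mx2, 13 of 15 for Oasl1, 22 of 22 for Rsad2 and 42 of 49 for Cmpk2. The highest single value was 0.5 CPM, for Cmpk2 in the RB160 siControl library without IL-17. A count of 3 reads, the most that a library at 0 allows, is 0.059 to 0.0941 CPM here (counting error only). A library at 0 therefore does not show absence below that level. None of the 10 interferon genes listed as ligands could be tested: Ifnb1, Ifna1, Ifna2, Ifna4, Ifna5, Ifnk, Ifng, Ifnl2 and Ifnl3 had 0 reads in every library, and Ifne had 5 reads, all in the RB160 siControl library with IL-17.

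In siIMP2 cells a broad set of the tested members was lower than in siControl cells and none was called higher. Among the members lower in both stimulus states, the log2 fold change without stimulus was -1.58 ± 0.18 (SE) for the GTPase gene Gbp2, -0.76 ± 0.06 for the transcription factor gene Irf1, -0.71 ± 0.09 for the membrane protein gene Ifitm3, -0.70 ± 0.10 for the peptide transporter gene Tap1 and -0.33 ± 0.10 for Stat2. Without stimulus 18 members were lower (background: 16.7% of 13702 genes tested were called lower) and 0 were higher (background 16.1%) at an adjusted p below 0.05 in edgeR's quasi-likelihood test. With IL-17, 15 members were lower (background 16.7%) and 0 higher (background 16.7%). Averaged over both stimulus states, 21 were lower (background 25.3%) and 0 higher (background 24.1%). Counts of members higher by DESeq2 and limma-voom were also 0 in these 3 comparisons, and at an unadjusted p below 0.05 Samhd1 was higher without stimulus and Samhd1 and Ifi27 were higher on average, with none higher in the IL-17 comparison. The median log2 fold change of the tested members was -0.57 without stimulus and -0.61 with IL-17, against 0.00 and -0.01 over all genes tested. For 14 of the 34 members every siIMP2 library lay below every siControl library inside both the RB160 and the NA set (background 14.4% of genes), namely Stat2, Irf1, Ddx58, Eif2ak2, Trim25, Ifitm1, Ifitm2, Ifitm3, Bst2, Gbp2, Gbp7, Tap1, Parp14 and Dtx3l. Markers moved with the siRNA as well: of 13 tested fibroblast markers 8 were lower on average and 2 higher, with a median log2 fold change of -0.48, against -0.58 for the tested members. Of the 3 tested epithelial markers 2 were higher and 1 lower, and the 7 on the list summed to 1.54 to 3.36 CPM in siIMP2 libraries and 0.525 to 2.43 CPM in siControl libraries, with none at 0 in all libraries. Of the 3 tested macrophage markers 1 was lower, of the 3 tested neural markers 2 were lower and 1 higher, and of the 2 tested endothelial markers 1 was lower. The part of these marker differences in the result was not tested. One member, Ifitm1, passed the filter on low counts only through siControl libraries and therefore had to differ. The counts of lower and of non-overlapping members above include Ifitm1. Gbp7 reached the filter level of 0.267 CPM in 2 siIMP2 libraries and 5 siControl libraries, so it too needed siControl libraries to pass. The counts above include Gbp7 as well, and its siRNA differences are a description. Of the tested members with a promoter window, an ISRE-like match lay in 11 of 19 called lower on average (57.9%) and in 2 of 9 not called (22.2%), and a GAS-like match in 6 of 19 (31.6%) and 3 of 9 (33.3%), counts given as a description.

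These calls rest on the term for the title set. Without that term RB160 and NA libraries count as replicates of each other, and 1 member was called lower in each stimulus state, Ifitm3. The background was then 184 of 13702 genes lower without stimulus and 194 with IL-17. The authors' deposited table, in which the control is named Mock, likewise lists Ifitm3 alone among the members at a false discovery rate below 0.05, with log2 fold changes of -0.71 without stimulus and -0.78 with IL-17. That table calls 164 and 170 of 20274 genes in these 2 comparisons.

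**Figure D1:**
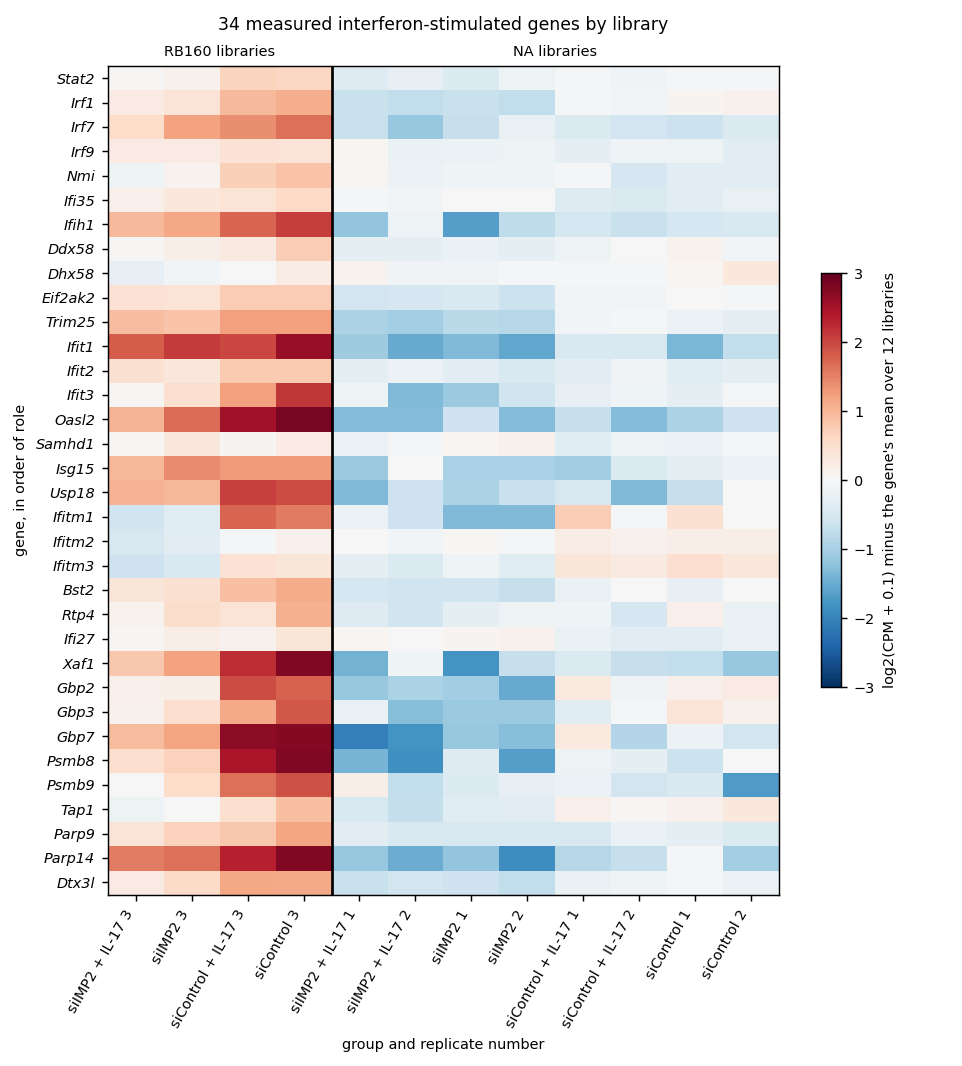
Level of each of the 34 tested members in each library, as log2(CPM + 0.1) minus the gene's mean over the 12 libraries, with red above and blue below the mean. The 4 RB160 libraries stand left of the line and the 8 NA libraries right of it, and 31 members are called higher in RB160. Inside each set most rows are lower in siIMP2 columns than in siControl columns.

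Of the 6 signalling and transcription factor genes, Irf1 and Stat2 were lower in both stimulus states and the other 4 did not pass. Irf1, an interferon-induced transcription factor that binds ISRE-like sites, had 11.9, 11.3 and 22.2 CPM in siIMP2 libraries with IL-17, against 18.4, 17.8 and 37.1 CPM in siControl libraries with IL-17. Without IL-17 the Irf1 levels were 11.9, 11.3 and 24.9 CPM in siIMP2 libraries and 19.8, 20.5 and 39.9 CPM in siControl libraries. Within the RB160 libraries and within the NA libraries, every siIMP2 value of Irf1 lay below every siControl value, and the RB160 values were well above the NA values in each group. Irf1 had a log2 ratio of siIMP2 to siControl of -0.68 ± 0.06 (SE) with IL-17 (edgeR adjusted p = 7.58e-06) and of -0.76 ± 0.06 without it (edgeR adjusted p = 3.64e-06). Irf1 differed by -0.71 in the RB160 libraries and -0.72 in the NA libraries, averaged over both stimulus states. Such set values, here and below, are differences of mean log2 CPM with a prior count of 2. They are not fitted ratios, and the prior count draws them towards 0 where reads are few. Stat2, a subunit of ISGF3, had 10.3, 11.3 and 13.8 CPM in siIMP2 libraries with IL-17, against 13, 12.7 and 21.5 CPM in siControl libraries with IL-17. Without IL-17 the Stat2 levels were 10.2, 12.1 and 14.9 CPM in siIMP2 libraries and 13.2, 13.1 and 20.8 CPM in siControl libraries. The RB160 siIMP2 libraries were close to the NA siControl libraries for Stat2, while inside each set the siRNA groups did not overlap. Stat2 had a log2 ratio of siIMP2 to siControl of -0.39 ± 0.10 (SE) with IL-17 (edgeR adjusted p = 0.00929) and of -0.33 ± 0.10 without it (edgeR adjusted p = 0.0232). Stat2 differed by -0.56 in the RB160 libraries and -0.24 in the NA libraries on this scale, averaged over both stimulus states. The Stat2 call was lost in each stimulus state when either RB160 library of the comparison was left out, and without stimulus also without replicate 1 of siIMP2. Irf9, the DNA-binding subunit of ISGF3, averaged 11.3 ± 1.91 CPM in siIMP2 cells and 11.6 ± 3.27 CPM in siControl cells without stimulus (SD, n = 3), which is -0.02 ± 0.10 in log2 terms (edgeR adjusted p = 0.899). Irf7, which amplifies interferon production, had 0.213, 0.125 and 0.619 CPM in siIMP2 libraries with IL-17 and 0.266, 0.234 and 1.2 CPM in siControl libraries with IL-17. That Irf7 difference did not pass (log2 -0.79 ± 0.31, edgeR adjusted p = 0.0648), and its locus overlaps Phrf1, which has many more reads. The interferon-induced partner proteins encoded by Nmi and Ifi35 did not pass in either state. Ifi35 had 10.5, 10.1 and 12 CPM in siIMP2 libraries and 8.13, 7.88 and 14.2 CPM in siControl libraries with IL-17, and 10.7, 10.7 and 13.4 CPM in siIMP2 libraries and 8.55, 9.2 and 16.4 CPM in siControl libraries without it. Nmi had 3.71, 3.13 and 3.23 CPM in siIMP2 libraries and 3.43, 2.45 and 5.92 CPM in siControl libraries with IL-17, and 3.22, 3.24 and 3.81 CPM in siIMP2 libraries and 2.84, 2.81 and 6.54 CPM in siControl libraries without it. In the RB160 set the siIMP2 values of both genes lay below the siControl values, and in the NA set they lay above or overlapped.

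Of the 5 RNA sensor and kinase genes, 4 were lower without stimulus. Eif2ak2, which encodes the double-stranded RNA-activated kinase PKR, had 16.8, 17.4 and 33 CPM in siIMP2 libraries with IL-17, against 23.2, 23.4 and 41.9 CPM in siControl libraries with IL-17. Without IL-17 the Eif2ak2 levels were 17.9, 15.8 and 32.7 CPM in siIMP2 libraries and 24.3, 23.6 and 42 CPM in siControl libraries. Each siIMP2 value of Eif2ak2 was below each siControl value of its own title set. Eif2ak2 had a log2 ratio of siIMP2 to siControl of -0.41 ± 0.07 (SE) with IL-17 (edgeR adjusted p = 0.000413) and of -0.45 ± 0.07 without it (edgeR adjusted p = 0.000203). Eif2ak2 differed by -0.35 in the RB160 libraries and -0.48 in the NA libraries on this scale, averaged over both stimulus states. Trim25, a ubiquitin ligase of the RIG-I pathway, had 7.48, 7.12 and 27.6 CPM in siIMP2 libraries with IL-17, against 13.8, 13.9 and 34.4 CPM in siControl libraries with IL-17. Without IL-17 the Trim25 levels were 8.28, 8.05 and 26.3 CPM in siIMP2 libraries and 12.8, 11.8 and 34.1 CPM in siControl libraries. The Trim25 siRNA groups did not overlap inside either set, and the NA libraries showed the wider gap on the log scale. Trim25 had a log2 ratio of siIMP2 to siControl of -0.68 ± 0.11 (SE) with IL-17 (edgeR adjusted p = 0.000427) and of -0.51 ± 0.11 without it (edgeR adjusted p = 0.0032). Trim25 differed by -0.35 in the RB160 libraries and -0.75 in the NA libraries on this scale, averaged over both stimulus states. Ddx58, which encodes the RNA sensor RIG-I, had 22.2, 22.7 and 28 CPM in siIMP2 libraries with IL-17, against 24.6, 27.4 and 33.2 CPM in siControl libraries with IL-17. Without IL-17 the Ddx58 levels were 23.8, 22.5 and 30.9 CPM in siIMP2 libraries and 29.6, 25.7 and 46.3 CPM in siControl libraries. Within the RB160 libraries and within the NA libraries, every siIMP2 value of Ddx58 lay below every siControl value. Ddx58 had a log2 ratio of siIMP2 to siControl of -0.22 ± 0.09 (SE) with IL-17 (edgeR adjusted p = 0.0817) and of -0.38 ± 0.09 without it (edgeR adjusted p = 0.00739). Ddx58 differed by -0.41 in the RB160 libraries and -0.23 in the NA libraries on this scale, averaged over both stimulus states. Ifih1, which encodes the RNA sensor MDA5, had 0.608, 1.35 and 3.05 CPM in siIMP2 libraries with IL-17, against 1.01, 0.905 and 5.31 CPM in siControl libraries with IL-17. Without IL-17 the Ifih1 levels were 0.409, 0.846 and 3.5 CPM in siIMP2 libraries and 1.01, 1.07 and 6.61 CPM in siControl libraries. The RB160 libraries were above the NA libraries of both siRNAs for Ifih1. Ifih1 had a log2 ratio of siIMP2 to siControl of -0.36 ± 0.29 (SE) with IL-17 (edgeR adjusted p = 0.375) and of -0.82 ± 0.29 without it (edgeR adjusted p = 0.0472). Ifih1 differed by -0.85 in the RB160 libraries and -0.42 in the NA libraries on this scale, averaged over both stimulus states. The Ifih1 call without stimulus was lost in 10 of the 12 fits that left out 1 library. Dhx58, the gene of the related helicase LGP2, ranged from 1.24 to 1.88 CPM over the 12 libraries and did not pass in either state.

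The IFIT, OAS-like and related antiviral effectors were mostly at low counts, and 5 of the 10 could be tested. Ifit3, which encodes an RNA-binding complex partner of IFIT1, had 0.547, 0.188 and 0.641 CPM in siIMP2 libraries with IL-17 and 0.504, 0.555 and 1.59 CPM in siControl libraries with IL-17. Without stimulus the Ifit3 levels were 0.234, 0.379 and 0.898 CPM in siIMP2 libraries and 0.491, 0.597 and 3.07 CPM in siControl libraries. The RB160 siControl libraries stood above all others for Ifit3, and the NA groups overlapped with IL-17. Ifit3 had a log2 ratio of siIMP2 to siControl of -0.89 ± 0.40 (SE) with IL-17 (edgeR adjusted p = 0.104) and of -1.31 ± 0.38 without it (edgeR adjusted p = 0.0172). Ifit3 differed by -1.48 in the RB160 libraries and -0.69 in the NA libraries in mean log2 CPM, averaged over both stimulus states. The fitted Ifit3 difference between sets, -0.88 ± 0.44, was not called. The call without stimulus was lost when replicate 1 or 3 of siIMP2 or replicate 3 of siControl was left out, and 81% of Ifit3 reads were unique. Oasl2, an OAS-like gene, had 0, 0 and 18 reads in siIMP2 libraries with IL-17 and 2, 0 and 67 reads in siControl libraries with IL-17, so its call (log2 -1.76 ± 0.52, edgeR adjusted p = 0.02) rests on the RB160 libraries. It was lost without either of the 2 RB160 libraries compared and with DESeq2. Without stimulus Oasl2 had 2, 0 and 29 reads in siIMP2 libraries and 1, 2 and 70 reads in siControl libraries (log2 -1.19 ± 0.48, edgeR adjusted p = 0.0765). Samhd1, which encodes a dNTP hydrolase, was the most abundant tested gene of the group and had 81.3, 85.5 and 98.7 CPM in siIMP2 libraries and 69.5, 76.6 and 93.3 CPM in siControl libraries without stimulus. Inside each set these Samhd1 values were higher in siIMP2 libraries, but the log2 difference of 0.15 ± 0.07 did not pass (edgeR adjusted p = 0.11). Ifit2, another RNA-binding member of the family, had 8.97, 9.78 and 15.2 CPM in siIMP2 libraries and 8.63, 10.3 and 19.1 CPM in siControl libraries with IL-17, and 8.65, 8.02 and 13.9 CPM in siIMP2 libraries and 8.63, 9.08 and 19.1 CPM in siControl libraries without it. The Ifit2 difference did not pass in either state (without stimulus log2 -0.23 ± 0.11, edgeR adjusted p = 0.126), nor did that of Ifit1 (log2 -0.56 ± 0.36, edgeR adjusted p = 0.256). In the ISG15 system neither the modifier gene Isg15 nor Usp18, which encodes the protease that removes ISG15, passed in either state. Isg15 had 0.146, 0.146 and 1.18 CPM in siIMP2 libraries and 0.3, 0.329 and 1.07 CPM in siControl libraries without stimulus, and its RB160 libraries of both siRNAs lay close together. Usp18 had 0, 2 and 19 reads in siIMP2 libraries and 3, 0 and 48 reads in siControl libraries with IL-17, and 1, 2 and 17 reads in siIMP2 libraries and 2, 5 and 37 reads in siControl libraries without it. Usp18 passed on average (log2 -1.09 ± 0.39, edgeR adjusted p = 0.035), a call that was lost with DESeq2, with limma-voom and in 8 of the 12 fits that left out 1 library, and 40.1% of its reads were unique.

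The group of IFITM genes, Bst2 and other effectors held the most abundant members. Of its 7 genes 4 were lower in both stimulus states, among them Ifitm1, which had to differ. Ifitm3, an interferon-induced membrane protein that blocks virus entry, had 81.8, 72.7 and 64.1 CPM in siIMP2 libraries with IL-17, against 127, 118 and 133 CPM in siControl libraries with IL-17. Without IL-17 the Ifitm3 levels were 90.3, 76.3 and 71.2 CPM in siIMP2 libraries and 139, 124 and 126 CPM in siControl libraries. All 6 siIMP2 values of Ifitm3 lay below all 6 siControl values, and in siIMP2 cells both RB160 values lay below all 4 NA values, while in siControl cells the sets overlapped. Ifitm3 had a log2 ratio of siIMP2 to siControl of -0.80 ± 0.09 (SE) with IL-17 (edgeR adjusted p = 3.61e-05) and of -0.71 ± 0.09 without it (edgeR adjusted p = 8.49e-05). Ifitm3 differed by -0.94 in the RB160 libraries and -0.66 in the NA libraries on this scale, averaged over both stimulus states. Bst2, which encodes tetherin, the factor that holds budding virions at the cell surface, had 4.65, 4.42 and 8.62 CPM in siIMP2 libraries with IL-17, against 5.84, 6.68 and 12.7 CPM in siControl libraries with IL-17. Without IL-17 the Bst2 levels were 4.39, 4.11 and 9.27 CPM in siIMP2 libraries and 5.6, 6.78 and 14.7 CPM in siControl libraries. Each siIMP2 value of Bst2 was below each siControl value of its own title set, with the RB160 libraries above the NA libraries of their group. Bst2 had a log2 ratio of siIMP2 to siControl of -0.50 ± 0.11 (SE) with IL-17 (edgeR adjusted p = 0.00381) and of -0.59 ± 0.11 without it (edgeR adjusted p = 0.00132). Bst2 differed by -0.61 in the RB160 libraries and -0.49 in the NA libraries on this scale, averaged over both stimulus states. Ifitm2, which encodes a related membrane protein, lies near Ifitm3 in the genome, with Ifitm1 between them. Ifitm2 had 109.8, 105 and 79.6 CPM in siIMP2 libraries with IL-17, against 129.7, 121 and 109 CPM in siControl libraries with IL-17. Without IL-17 the Ifitm2 levels were 114, 108 and 87 CPM in siIMP2 libraries and 127, 126 and 122 CPM in siControl libraries. Within the RB160 libraries and within the NA libraries, every siIMP2 value of Ifitm2 lay below every siControl value. Ifitm2 had a log2 ratio of siIMP2 to siControl of -0.30 ± 0.07 (SE) with IL-17 (edgeR adjusted p = 0.00661) and of -0.29 ± 0.07 without it (edgeR adjusted p = 0.00732). Ifitm2 differed by -0.47 in the RB160 libraries and -0.21 in the NA libraries on this scale, averaged over both stimulus states. The Ifitm2 call without stimulus was lost when replicate 3 of siIMP2 was left out. Ifitm1 had 13 reads in the 6 siIMP2 libraries together and 96 reads in the 6 siControl libraries. Its siIMP2 libraries with IL-17 had 4, 2 and 3 reads, against 12, 5 and 38 in siControl libraries with IL-17. Without stimulus the Ifitm1 reads were 0, 0 and 4 in siIMP2 libraries and 9, 5 and 27 in siControl libraries. The Ifitm1 groups did not overlap inside either set. The fitted log2 values of -2.29 ± 0.59 with IL-17 and -3.25 ± 0.70 without it rest on few reads. They are a description, since Ifitm1 passed the filter only through siControl libraries. With IL-17 the Ifitm1 call was lost when either RB160 library of the comparison was left out. Xaf1, which encodes an XIAP-associated factor, passed on average only (log2 -1.28 ± 0.42, edgeR adjusted p = 0.0223), and leaving out any RB160 library, or using DESeq2, ended that call. The interferon-induced genes Rtp4 and Ifi27 did not pass. Ifi27 had 17.9, 17.4 and 18.1 CPM in siIMP2 libraries and 15, 13.7 and 18.7 CPM in siControl libraries with IL-17, and 18.2, 18.9 and 19.9 CPM in siIMP2 libraries and 13.5, 15 and 22.3 CPM in siControl libraries without it, with siIMP2 above siControl in the NA set and close to it in the RB160 set. At Rtp4, whose locus overlaps the more abundant Masp1, 52% of the reads were unique.

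**Figure D2:**
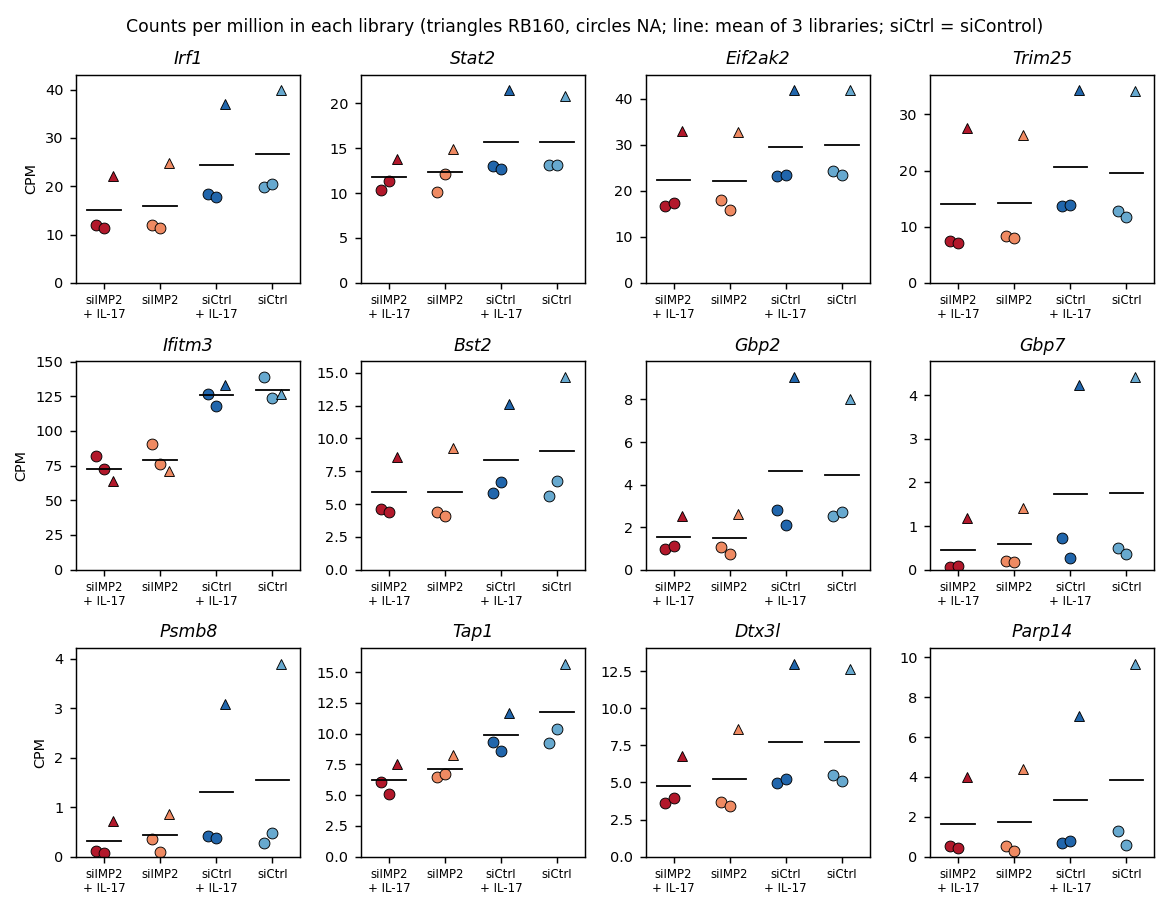
CPM of 12 members in each library, on axes that start at 0, with triangles for RB160 libraries, circles for NA libraries and a line at the mean of the 3 libraries of a group. The 12 were picked from the members called lower with siIMP2 in both stimulus states, so lower siIMP2 points follow from the choice. Compared triangle with triangle and circle with circle, the siIMP2 points lie below the siControl points in these panels, with the exception of Psmb8, whose NA circles without IL-17 overlap.

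The 3 genes of guanylate-binding proteins, interferon-induced GTPases, were lower without stimulus, and Gbp2 and Gbp7 also with IL-17. The 3 genes lie near one another on chromosome 3 (mm10), Gbp7 at chr3:142530342-142550149, Gbp3 at chr3:142560026-142573209 and Gbp2 at chr3:142620602-142638008, all on the plus strand. Gbp2, the most abundant of them, had 0.973, 1.13 and 2.54 CPM in siIMP2 libraries with IL-17, against 2.79, 2.1 and 9.06 CPM in siControl libraries with IL-17. Without IL-17 the Gbp2 levels were 1.05, 0.729 and 2.62 CPM in siIMP2 libraries and 2.54, 2.72 and 8.04 CPM in siControl libraries. Each siIMP2 value of Gbp2 was below each siControl value of its own title set. Gbp2 had a log2 ratio of siIMP2 to siControl of -1.50 ± 0.18 (SE) with IL-17 (edgeR adjusted p = 5.13e-05) and of -1.58 ± 0.18 without it (edgeR adjusted p = 3.5e-05). Gbp2 differed by -1.70 in the RB160 libraries and -1.35 in the NA libraries on this scale, averaged over both stimulus states. Gbp7, which carries both motifs in the printed window, had 0.0608, 0.0941 and 1.19 CPM in siIMP2 libraries with IL-17, against 0.717, 0.263 and 4.23 CPM in siControl libraries with IL-17. Without IL-17 the Gbp7 levels were 0.205, 0.175 and 1.42 CPM in siIMP2 libraries and 0.491, 0.358 and 4.42 CPM in siControl libraries. The Gbp7 groups did not overlap inside either set, although NA libraries held no more than 27 reads each. Gbp7 had a log2 ratio of siIMP2 to siControl of -2.04 ± 0.34 (SE) with IL-17 and of -1.46 ± 0.33 without it. Both ratios are a description, since Gbp7 needed siControl libraries to pass the filter. Gbp7 differed by -1.69 in the RB160 libraries and -1.45 in the NA libraries in mean log2 CPM, averaged over both stimulus states. The fitted Gbp7 difference between sets was 0.06 ± 0.38. The call without stimulus was lost when replicate 3 of siIMP2 was left out. Gbp3, whose window holds 2 ISRE-like matches, had 0.304, 0.0941 and 0.42 CPM in siIMP2 libraries with IL-17, against 0.266, 0.35 and 0.944 CPM in siControl libraries with IL-17. Without IL-17 the Gbp3 levels were 0.117, 0.117 and 0.567 CPM in siIMP2 libraries and 0.519, 0.418 and 1.62 CPM in siControl libraries. The Gbp3 groups without stimulus did not overlap inside either set. Gbp3 had a log2 ratio of siIMP2 to siControl of -0.90 ± 0.37 (SE) with IL-17 (edgeR adjusted p = 0.0769) and of -1.68 ± 0.35 without it (edgeR adjusted p = 0.00268). Gbp3 differed by -1.25 in the RB160 libraries and -1.13 in the NA libraries in mean log2 CPM, averaged over both stimulus states. The difference between these 2 Gbp3 changes was itself not called.

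Of the antigen-processing genes, Tap1 and Psmb8 were lower in both stimulus states and Psmb9 did not pass. Tap1, which encodes a subunit of the peptide transporter, had 6.05, 5.05 and 7.49 CPM in siIMP2 libraries with IL-17, against 9.35, 8.58 and 11.7 CPM in siControl libraries with IL-17. Without IL-17 the Tap1 levels were 6.43, 6.68 and 8.23 CPM in siIMP2 libraries and 9.2, 10.4 and 15.7 CPM in siControl libraries. Within the RB160 libraries and within the NA libraries, every siIMP2 value of Tap1 lay below every siControl value. Tap1 had a log2 ratio of siIMP2 to siControl of -0.67 ± 0.11 (SE) with IL-17 (edgeR adjusted p = 0.00041) and of -0.70 ± 0.10 without it (edgeR adjusted p = 0.000274). Tap1 differed by -0.78 in the RB160 libraries and -0.63 in the NA libraries on this scale, averaged over both stimulus states. Psmb8, an immunoproteasome subunit, had 0.122, 0.0627 and 0.729 CPM in siIMP2 libraries with IL-17, against 0.425, 0.38 and 3.09 CPM in siControl libraries with IL-17. Without IL-17 the Psmb8 levels were 0.351, 0.0875 and 0.851 CPM in siIMP2 libraries and 0.273, 0.478 and 3.9 CPM in siControl libraries. The RB160 siControl libraries stood far above all others for Psmb8, and without stimulus the NA groups overlapped. Psmb8 had a log2 ratio of siIMP2 to siControl of -2.07 ± 0.41 (SE) with IL-17 (edgeR adjusted p = 0.00189) and of -1.61 ± 0.39 without it (edgeR adjusted p = 0.00701). Psmb8 differed by -2.07 in the RB160 libraries and -1.24 in the NA libraries in mean log2 CPM, averaged over both stimulus states. The fitted Psmb8 difference between sets, -0.82 ± 0.58, was not called. Without stimulus the Psmb8 difference was -2.13 in the RB160 libraries and -0.81 in the NA libraries, and the call was lost when either RB160 library was left out. Psmb9, another immunoproteasome subunit, had 5, 6 and 16 reads in siIMP2 libraries and 5, 0 and 47 reads in siControl libraries without stimulus, log2 -0.64 ± 0.68 (edgeR adjusted p = 0.509), and it overlaps Tap1 in the genome. In the PARP group, Dtx3l and Parp14 were lower in both states. Dtx3l, the ubiquitin ligase partner of PARP9, had 3.59, 3.92 and 6.78 CPM in siIMP2 libraries with IL-17, against 4.99, 5.25 and 13 CPM in siControl libraries with IL-17. Without IL-17 the Dtx3l levels were 3.71, 3.41 and 8.58 CPM in siIMP2 libraries and 5.52, 5.08 and 12.7 CPM in siControl libraries. Each siIMP2 value of Dtx3l was below each siControl value of its own title set. Dtx3l had a log2 ratio of siIMP2 to siControl of -0.64 ± 0.12 (SE) with IL-17 (edgeR adjusted p = 0.00123) and of -0.57 ± 0.12 without it (edgeR adjusted p = 0.00262). Dtx3l differed by -0.75 in the RB160 libraries and -0.50 in the NA libraries on this scale, averaged over both stimulus states. Parp14, a mono-ADP-ribosyltransferase, had 0.547, 0.408 and 4 CPM in siIMP2 libraries with IL-17, against 0.69, 0.788 and 7.08 CPM in siControl libraries with IL-17. Without IL-17 the Parp14 levels were 0.526, 0.292 and 4.37 CPM in siIMP2 libraries and 1.28, 0.597 and 9.68 CPM in siControl libraries. Within the RB160 libraries and within the NA libraries, every siIMP2 value of Parp14 lay below every siControl value, and the RB160 values stood far above the NA values. Parp14 had a log2 ratio of siIMP2 to siControl of -0.75 ± 0.25 (SE) with IL-17 (edgeR adjusted p = 0.0338) and of -1.16 ± 0.24 without it (edgeR adjusted p = 0.00263). Parp14 differed by -0.98 in the RB160 libraries and -0.83 in the NA libraries on this scale, averaged over both stimulus states. The Parp14 call with IL-17 was lost in 5 of the 12 fits that left out 1 library, namely without any library of siControl with IL-17 or without replicate 2 or 3 of siIMP2 with IL-17. Parp9, the partner gene of Dtx3l, did not pass (without stimulus log2 -0.27 ± 0.14, edgeR adjusted p = 0.167), and its locus overlaps that of Dtx3l.

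**Figure D3:**
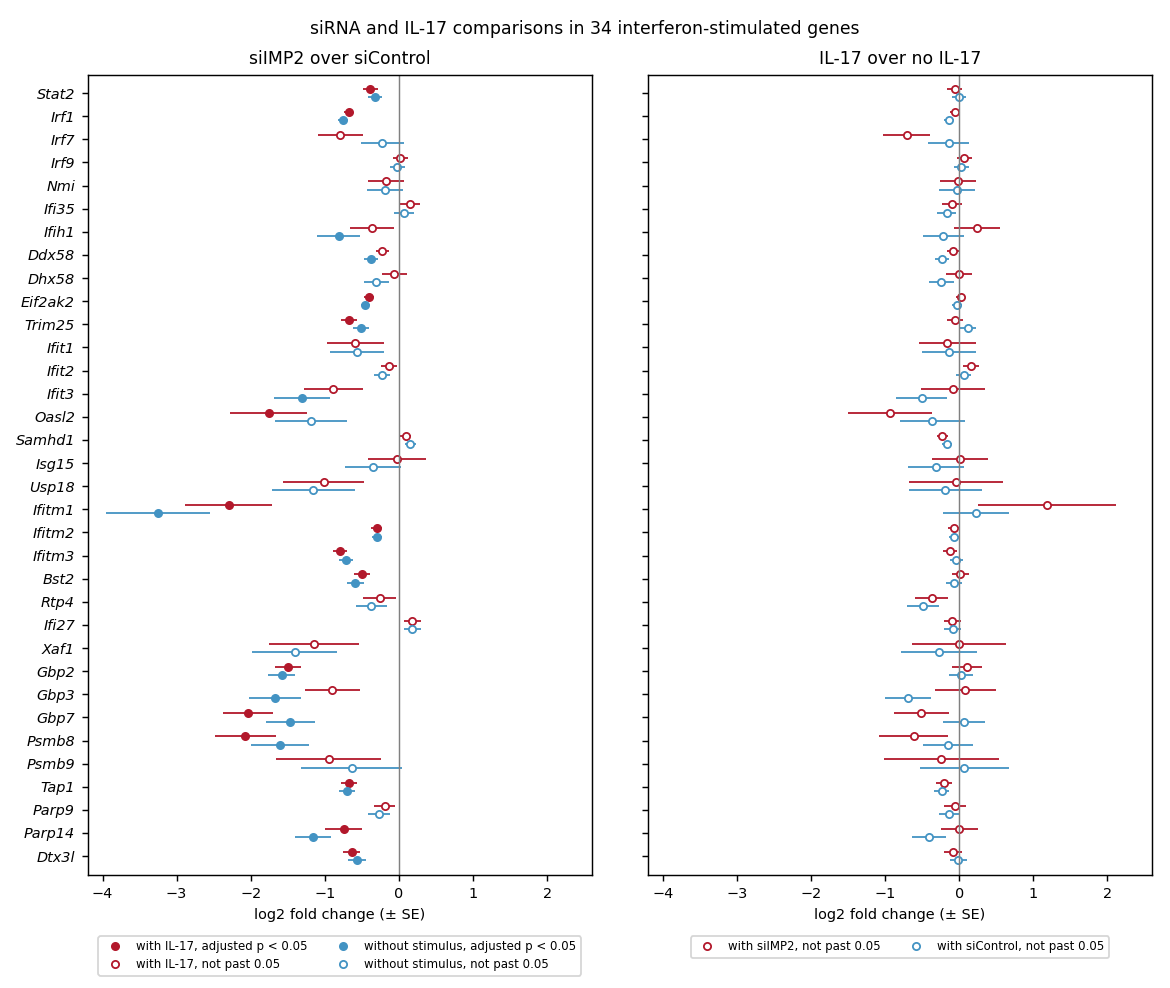
Log2 fold change with its SE for the 34 tested members, for siIMP2 over siControl (left) and for IL-17 over no IL-17 (right), with filled points where the adjusted p is below 0.05. On the left 15 points with IL-17 and 18 without stimulus are filled, all below 0. On the right no point is filled.

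IL-17 itself changed no tested member at the threshold. In siIMP2 cells 0 of 34 members were called (background 0.511% of genes). An unadjusted p below 0.05 was found for 2, Irf7 and Samhd1 (background 1038 of 13702 genes). In siControl cells 0 were called (background 0.423%) and 6 had an unadjusted p below 0.05 (background 1503 of 13702 genes). All 6 were lower with IL-17: Irf1, Ddx58, Samhd1, Rtp4, Gbp3 and Tap1. Averaged over both siRNAs 0 were called (background 2.72%) and 5 had an unadjusted p below 0.05 (background 2193 of 13702 genes). These 5 were Irf1, Ddx58, Samhd1, Rtp4 and Tap1. By DESeq2 the called members were 0 in siIMP2 cells, 0 in siControl cells and 1, Samhd1, on average. By limma-voom they were 0, 0 and 0. Samhd1 had 68.7, 76.5 and 81.1 CPM in siIMP2 libraries with IL-17 and 81.3, 85.5 and 98.7 CPM in siIMP2 libraries without it. In siControl cells the Samhd1 levels were 61.1, 70 and 82.5 CPM with IL-17 and 69.5, 76.6 and 93.3 CPM without it. The IL-17 values of Samhd1 lay below the unstimulated values inside both sets in siIMP2 cells and inside the RB160 set in siControl cells, while the NA libraries of siControl overlapped. The averaged log2 difference was -0.20 ± 0.05 (edgeR adjusted p = 0.055). For Irf1 the log2 change with IL-17 was -0.06 ± 0.07 in siIMP2 cells and -0.14 ± 0.06 in siControl cells. The corresponding values for Bst2 were 0.02 ± 0.11 in siIMP2 cells and -0.07 ± 0.11 in siControl cells. For Ifitm1, with few reads, the error was wide (1.18 ± 0.93 in siIMP2 cells). The median log2 change of the tested members was -0.06 in siIMP2 cells and -0.14 in siControl cells, against -0.01 over all genes tested in each. A p that misses the threshold does not show that levels were equal.

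The difference between the IL-17 responses, siIMP2 response minus siControl response, was called in 0 of 34 members and in 0 of 13702 genes (background 0%). At an unadjusted p below 0.05 there were 0 members (background 152 of 13702 genes), and DESeq2 and limma-voom also called 0. The same term tests whether the IMP2 siRNA effect differed with and without IL-17. Members called in one stimulus state and not in the other, such as Gbp3, Ddx58 and Oasl2, were therefore not shown to differ between the states. The member values of this difference ran from -0.57 to 0.96 on the log2 scale, the highest being for Ifitm1 with its very low counts.

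The members also differed between the title sets. In RB160 over NA libraries 31 of 34 tested members were higher (background 34.9% of genes) and 1, Ifitm2, was lower (background 34.6%). Dhx58 and Ifitm3 did not pass. The median log2 difference of the tested members was 1.19, against 0.00 over all genes tested. For 21 members every RB160 library lay above every NA library, whichever the treatment (background 18.9%). The filter bears on this count: Ifit1, Oasl2, Usp18 and Xaf1 stayed under 0.267 CPM in all 8 NA libraries and passed only through the RB160 libraries, so they had to differ. Irf7, Ifitm1 and Psmb9 reached that level in too few NA libraries to pass without the RB160 libraries. Their set differences are therefore a description as well. In 12 of the 34 members all NA libraries were under 1 CPM. Since each group holds RB160 and NA libraries in the same proportion, the set enters the fits as a term. Whether the libraries of a set share a preparation is not stated in the labels. The p-values for the sets then measure only the spread between libraries.

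Oasl2 had 18 to 70 reads in RB160 libraries and 0 to 2 reads in NA libraries. Ifit1 averaged 1.99 ± 0.531 CPM (SD, n = 4) in RB160 libraries and 0.133 ± 0.0744 CPM (SD, n = 8) in NA libraries. Since Oasl2 and Ifit1 passed the filter through the RB160 libraries, their values are a description, with no test. Parp14 averaged 6.28 ± 2.65 CPM in RB160 libraries and 0.641 ± 0.302 CPM in NA libraries, log2 3.27 ± 0.16 (edgeR adjusted p = 2.55e-09). Isg15 was at 1.04 ± 0.133 CPM in RB160 libraries and 0.227 ± 0.102 CPM in NA libraries. Among the signalling genes the log2 set difference was 1.02 ± 0.04 for Irf1, 0.55 ± 0.07 for Stat2 and 0.51 ± 0.07 for Irf9, all called higher. Irf7, at 2.19 ± 0.20, needed the RB160 libraries to pass the filter, so its value is a description. Gbp7, at 3.24 ± 0.22, and Gbp2, at 1.61 ± 0.12, were higher in RB160 too. The macrophage markers summed to 4.64 to 5.74 CPM in RB160 libraries and 3.89 to 6.39 CPM in NA libraries, the epithelial markers to 2.26 to 3.36 CPM in RB160 libraries and 0.525 to 1.75 CPM in NA libraries, and the neural markers to 319 to 434 CPM in RB160 libraries and 892 to 954 CPM in NA libraries. Of 13 tested fibroblast markers 8 were higher in RB160 libraries (background 34.9% of genes) and 3 lower (background 34.6%). The 2 tested endothelial markers were lower. What part these marker differences had in the result was not tested, and the labels give nothing on how the sets were made.

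**Figure D4:**
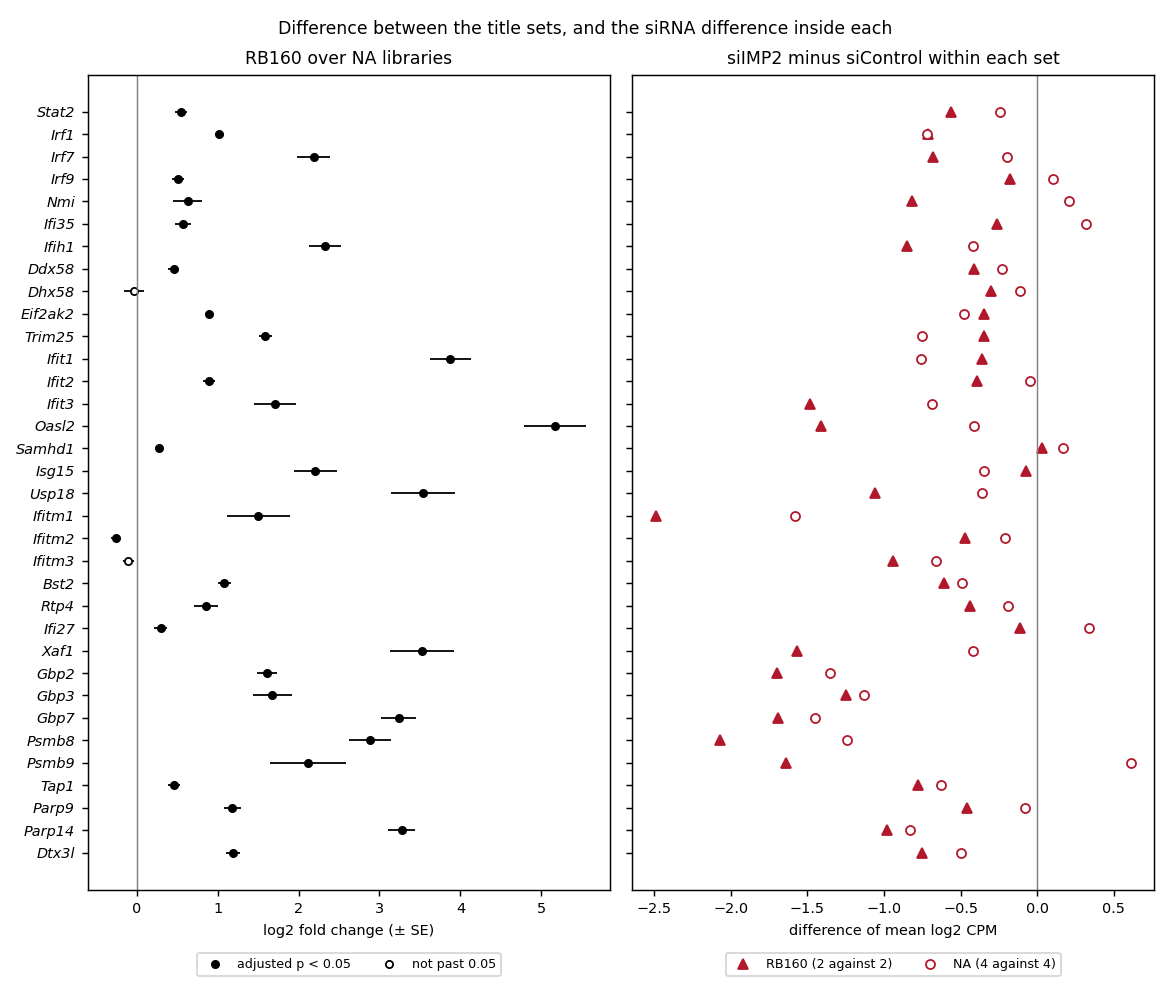
Left, log2 fold change of the 34 tested members in RB160 over NA libraries with its SE, with 31 filled points above 0 and 1, Ifitm2, below. Right, difference of mean log2 CPM between siIMP2 and siControl libraries inside each set, for 2 against 2 RB160 libraries (triangles) and 4 against 4 NA libraries (circles). Most pairs lie left of 0 in both sets, and Irf9, Nmi, Ifi35, Ifi27 and Psmb9 lie on opposite sides.

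The siRNA difference was also fitted in each set by itself. With the NA libraries alone, 11 of 27 testable members were called lower without stimulus (background 15.1% of 13476 genes) and 1, Ifi27, higher (background 15.3%). In the NA libraries with IL-17, 11 were lower (background 15.5%) and 2, Ifi35 and Ifi27, higher (background 15.4%). With the RB160 libraries alone, a fit added after the results were seen that has 1 residual degree of freedom, 18 of 26 members were called lower on average (background 23.8% of 11801 genes) and 0 higher (background 22.4%). A direct test of the difference in siRNA effect between sets called 5 of 34 members (background 6.58% of genes), namely Nmi, Ifi35, Ifitm2, Ifi27 and Trim25. Trim25 and Ifitm2 were lower with siIMP2 in both sets by different amounts, whereas Nmi, Ifi35 and Ifi27 were below 0 in the RB160 set and above 0 in the NA set. Each of the 5 calls was lost when any RB160 library was left out, and the Trim25 call was lost in 11 and the Ifitm2 call in 9 of the 12 fits that left out 1 library.

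Among the receptor, kinase and STAT genes, Ifnar1, Ifnar2, Jak1 and Stat3 were lower with siIMP2 on average and Tyk2 was higher. Stat3, which mediates signals of the IL-6 family, had an averaged log2 change of -0.97 ± 0.04 (edgeR adjusted p = 6.69e-09), the receptor gene Ifnar2 of -0.24 ± 0.06 (edgeR adjusted p = 0.00326) and the kinase gene Jak1 of -0.19 ± 0.03 (edgeR adjusted p = 0.000495). Among 9 measured of 10 sensing genes upstream of interferon, 3 were lower and 2 higher on average, where 25.3% of all genes tested were lower and 24.1% higher. Tmem173, which encodes the adaptor STING, changed by log2 -0.45 ± 0.05 (edgeR adjusted p = 1.86e-05) and Mb21d1, the gene of the DNA sensor cGAS, by -0.20 ± 0.06 (edgeR adjusted p = 0.0141). Mavs, the adaptor of RIG-I, was higher by log2 0.28 ± 0.05 (edgeR adjusted p = 0.000232) and Irf3, the factor that switches on Ifnb1, by 0.29 ± 0.04 (edgeR adjusted p = 0.000121).

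Of 8 measured among 11 regulatory factors and feedback genes, 5 were lower on average and 1 higher, against the same background of 25.3% lower and 24.1% higher, which also holds for the next 2 lists. Socs3, a feedback inhibitor of JAK signalling, changed by -1.16 ± 0.07 on the log2 scale (edgeR adjusted p = 7.36e-08), Trim21 by -0.80 ± 0.14 (edgeR adjusted p = 0.000379) and Irf2 by -0.23 ± 0.05 (edgeR adjusted p = 0.0011), while the exonuclease gene Isg20 was higher by 0.39 ± 0.07 (edgeR adjusted p = 0.000581). Among 31 measured of 47 interferon-induced effectors outside the members, 17 were lower and 4 higher, with a median log2 fold change of -0.35. The lower ones included Lgals3bp at -0.87 ± 0.06 (edgeR adjusted p = 2.04e-07), the helicase gene Mov10 at -0.64 ± 0.06 (edgeR adjusted p = 1.83e-06), the cytidine deaminase gene Apobec3 at -0.67 ± 0.08 (edgeR adjusted p = 1.61e-05) and Pnpt1 at -0.31 ± 0.04 (edgeR adjusted p = 2.24e-05). The higher ones were Irgm1, Adar, Znfx1 and Shisa5. Of 12 other antigen presentation genes 9 were lower and 0 higher, 3 not passing. The aminopeptidase gene Erap1 changed by log2 -0.93 ± 0.06 (edgeR adjusted p = 7.36e-08), Pdia3 by -0.58 ± 0.08 (edgeR adjusted p = 4.86e-05), the chaperone gene Calr by -0.37 ± 0.06 (edgeR adjusted p = 0.000112) and Tapbp, which encodes tapasin, by -0.40 ± 0.07 (edgeR adjusted p = 0.000359). Averaged over siRNAs, IL-17 was followed by higher Ifngr2 (0.15 ± 0.04), Tyk2 (0.22 ± 0.05) and Ikbke (0.28 ± 0.07) and by lower Igtp (-0.96 ± 0.21) and Irgm1 (-0.31 ± 0.06), the genes of these lists past the threshold.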

How the data were processed

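The authors deposited raw read counts per gene and TPM for each of the 12 libraries, and a table of log2 fold changes with FDR p-values for their own comparisons. Per the file headers the reads were paired and trimmed, and per the submitters' processing notes the genome build was mm10. The aligner, the counting tool, strand handling and the authors' test are not stated in the sources at hand. Library groups came from the labels. The per-library counts equalled those of the series table in 12 of 12 libraries.

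Counts were normalised by TMM and tested with edgeR 4.0.16 in R 4.3.3, by the quasi-likelihood test with a term for each of the 4 groups and for the title set. Genes passed filterByExpr (minimum count 10, minimum total 15), and p-values were adjusted by Benjamini-Hochberg over the 13702 genes tested, with 0.05 as threshold. All 12 libraries entered each fit, so groups share 1 estimate of the spread. Set-wise differences are of mean log2 CPM with a prior count of 2. DESeq2 1.42.0, limma-voom (limma 3.58.1), other filters, size factors, uniquely mapped reads and leaving out each library were tried as alternatives, and the scripts were tested on simulated data. Members and lists were chosen with earlier results of these data known. Per-library values are given for up to 4 members per role with the smallest p for the averaged siRNA effect and for members called between sets. Of the other lists up to 4 genes of smallest p, and any called for IL-17, are named, and 1 gene is not reported here. RefSeq promoters were matched by symbol. Intervals for counts of 0 cover counting error only.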

Additional observations from a re-analysis of the deposited data

Results flagged for a closer look

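For 5 members the siRNA difference was not the same in the RB160 and NA libraries by a test of that difference (edgeR siRNA-by-set term, adjusted over all genes tested). Nmi differed by -1.03 ± 0.20 on the log2 scale between sets (edgeR adjusted p = 0.00863), from -0.82 in RB160 libraries and 0.21 in NA libraries, siIMP2 minus siControl. For Ifi35 the difference was -0.58 ± 0.10 (edgeR adjusted p = 0.00601), from -0.26 in RB160 libraries and 0.32 in NA libraries. Ifi27 gave -0.45 ± 0.10 (edgeR adjusted p = 0.0216), from -0.11 in RB160 libraries and 0.34 in NA libraries. In Ifitm2 it was -0.26 ± 0.07 (edgeR adjusted p = 0.0483), from -0.47 in RB160 libraries and -0.21 in NA libraries. Trim25 had 0.41 ± 0.11 (edgeR adjusted p = 0.0382), from -0.35 in RB160 libraries and -0.75 in NA libraries. The RB160 values rest on 2 libraries per siRNA and the NA values on 4 per siRNA. Leaving out any 1 RB160 library ended each of these 5 calls. Over all 12 fits that left out 1 library the Trim25 call was lost in 11 and the Ifitm2 call in 9, NA libraries included. Of all genes tested, 6.58% were called.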

How the results depend on the processing

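No called member changed sign under any alternative run. Of the repeats of called members, 328 of 371 kept the call without stimulus, 279 of 307 with IL-17, 376 of 423 on average, 567 of 568 for the title sets and 33 of 65 for the siRNA difference between sets. Without the title-set term, members called lower with siIMP2 were 1 without stimulus (background 184 of 13702 genes), 1 with IL-17 (background 194) and 3 on average. With the NA libraries alone, 11 were lower without stimulus, and the members called higher were 1 without stimulus (Ifi27), 2 with IL-17 (Ifi35 and Ifi27) and 3 on average (Samhd1, Ifi35 and Ifi27). With no filter beyond 1 count, 2 members were higher on average (Samhd1 and Ifi27). Members lower with IL-17 became 1 in siIMP2 cells when the 2 groups compared were fitted alone, and 1 on average with no filter and with DESeq2, in each case Samhd1. Members too low to measure numbered 0 with no filter and 13 when 1 CPM in 3 libraries was required. Leaving out each library in turn gave 0 to 1 members higher with siIMP2 without stimulus (1 without replicate 3 of siControl), 0 to 2 on average, 0 to 1 lower with IL-17 on average, 1 to 2 lower in RB160 (2 without replicate 3 of siControl with IL-17), and for the siRNA difference between sets 0 to 1 higher and 0 to 5 lower, with 0 lower whenever an RB160 library was left out. Members lower with siIMP2 ran from 12 to 20 without stimulus, from 11 to 17 with IL-17 and from 17 to 23 on average. Without stimulus, the 12 came without replicate 3 of siIMP2 (background 1722 of 13898 genes lower). The 20 came without replicate 2 of siIMP2 with IL-17 (background 2177 of 13931 genes lower). Replicates were numbered by accession, which ties no library to another, so no replicate block was fitted. Depth limits the 12 members that stayed under 1 CPM in all NA libraries, where single reads move the values, and the 5 untested ones. With 1 RB160 library per group, values inside that set have no replicate of their own. The causes of these changes were not tested.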

Other observations

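Several interferon-induced genes outside the member list were seen almost entirely in the RB160 libraries. Sp100, a nuclear body component, had 531 reads in the 4 RB160 libraries and 1 read in the 8 NA libraries. Trim30a had 323 reads in RB160 libraries and 10 in NA libraries, and the guanylate-binding protein gene Gbp6 had 240 reads in RB160 libraries and 2 in NA libraries. Oas1a, which encodes an oligoadenylate synthetase, had 65 reads in RB160 libraries and 0 in NA libraries. These 4 genes were picked after their values were seen.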
